A study of Mus musculus with 8 samples.

Results

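The baseline transcriptome of healthy mouse quadriceps was described from 3 RNA-seq libraries of wild-type muscle. A gene was counted as detected when it reached 1 FPKM (fragments mapped per unit of transcript length and of library size) in at least 2 of the 3 libraries, and 11641 of the 43628 genes in the deposited table met that rule. The wild-type mice were males of the C57BL/10ScSnJ strain aged 8 weeks, with no labelled treatment. RNA of 14 animals was combined into 3 pools of 4 to 6 mice each, here called WT 1, WT 2 and WT 3, so n counts pools and the spread between single mice was not measured. The series also holds 5 libraries of dystrophic muscle, from mdx and dy2J/dy2J mice, which were not used. With 1 group there was no comparison between conditions and no test. Levels are given with the SD over pools, and genes are called apart when the lowest pool of the higher gene lies above the highest pool of the lower gene.

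The quadriceps is a limb muscle made mostly of fast fibres in the mouse. A fibre shortens when calcium released from the sarcoplasmic reticulum binds troponin on the thin filament and lets myosin heads pull on actin, and calcium pumps then end the contraction. Many proteins of this cycle exist as fast, slow, cardiac and non-muscle isoforms from separate genes. Fast fibres take much of their ATP from creatine phosphate and glycolysis, and slow fibres from mitochondrial respiration. FPKM values are per length, so levels of different genes can be set side by side within a library.

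Some values of 0 in the table were not levels. The entry of Myh4, which encodes the IIB form of myosin heavy chain, read 0 in each pool, as did those of mt-Co1, mt-Co3, mt-Atp6, mt-Atp8, Myom1, Srf, Malat1 and Neat1. The status column of the authors' deposited table read FAIL for Myh4, LOWDATA for mt-Co1, mt-Co3, mt-Atp6 and mt-Atp8, and NOTEST for Myom1, Srf, Malat1 and Neat1. It also read FAIL for Gapdh, which had values in all pools, and OK for Acta1. Acta1, the skeletal alpha-actin, was listed at 0 in WT 1 and at 24124 and 23973 FPKM in WT 2 and WT 3. That zero lay in a run on chromosome 8 from 119910360 to 124345724 in which all 74 protein-coding genes were at 0 in WT 1, and 50 of them reached 1 FPKM in both other pools. Cox4i1 and Rpl13 lay in the same run. On chromosome 17, Srf and Myom1 lay in runs of 17 and 6 neighbouring protein-coding genes that were at 0 in every pool. Another such run, around Stub1, held 16 genes. A 0 in a gene whose highest wild-type value was at least 5 FPKM was therefore treated as missing, which touched 46 detected genes. Known abundant genes at 0 in all pools, among them those named above, were given no level. Other genes at 0 in all pools, such as Pklr and Xist, kept a level of 0 in the family shares. The runs at 0 were named after their values were seen.

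The summed FPKM of the pools was 732655, 722830 and 701413. These sums do not give the sequencing depth, which is unknown. The pools held 11499, 11713 and 11712 genes at 1 FPKM or more, and 11106 genes reached 1 FPKM in all 3. Zeros treated as missing, 41 in WT 1, 13 in WT 2 and 13 in WT 3, counted as under 1 FPKM in these numbers. The median detected gene had 7.16 FPKM. Its SD between pools was 0.109 on the log2(FPKM + 1) scale at the median, and the coefficient of variation was under 20% for 85.8% of the 11595 genes with 3 usable values. Just inside the threshold lay Sardh, with values of 1.00001, 0.818 and 1.00168 FPKM, and just outside lay 4921513D11Rik, with 0.999, 1.08 and 0.604 FPKM. Protein-coding genes made up 10962 of the detected genes, or 49.4% of the 22196 in the table. Genes in the runs at 0 in every pool counted as undetected in that share. The same share is the background for the counts of list members detected below, and list medians cover detected members only. Of 3011 lincRNA genes, 2944 were listed at 0 in all 3 pools, and all 2011 miRNA and 1555 snoRNA genes were at 0, so these classes cannot be described here.

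The level was concentrated in few genes. Among the 11632 detected nuclear genes, Mylpf alone held 11.1% of the summed level, the 20 highest genes 38.6%, the 100 highest 51.3% and the 1000 highest 76.5%. The 35 genes at 1000 FPKM or more held 42.6%, while the 6935 genes between 1 and 10 FPKM held 6.00%.

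**Figure D1:**
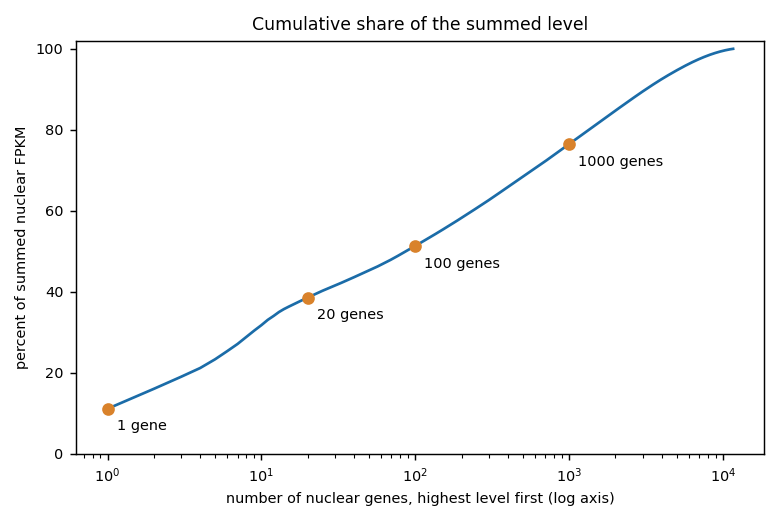
Cumulative percentage of the summed FPKM of detected nuclear genes (vertical axis) against the number of genes counted from the highest level down (horizontal axis, log scale), from means over the WT pools. The marked points lie at 11.1% for 1 gene, 38.6% for 20, 51.3% for 100 and 76.5% for 1000.

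Contractile proteins led the ranking. Mylpf, the regulatory light chain of fast myosin, had 60119, 55114 and 47002 FPKM in WT 1, WT 2 and WT 3, with a mean of 54078 ± 6619.7 (SD, n = 3). Acta1 was second at 24049 ± 107 (SD, n = 2), from the 2 pools with a value. Myl1, the essential light chain of fast myosin, came next, at 16212, 13972 and 13204 FPKM. All 3 of these genes were apart from each other. The fast troponin genes followed, with Tnnt3, which anchors troponin to tropomyosin, at 8624 ± 302, Tnnc2, the calcium sensor, at 8596 ± 869, and Tnni2, the inhibitory subunit, at 6379 ± 282 FPKM. Tpm1 and Tpm2, the tropomyosins that cover the myosin sites on actin, had 6441 ± 510 and 4699 ± 193 FPKM. Actn3, the alpha-actinin of fast Z-discs, had 2473 ± 239 FPKM, and Neb, the giant ruler of the thin filament, had 1743 ± 120 FPKM.

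Calcium handling and energy supply filled most of the other leading places. Atp2a1, the fast calcium pump of the sarcoplasmic reticulum, had 10923, 11147 and 9849 FPKM. Pvalb, a soluble calcium buffer of fast fibres, had 9229.65, 7537 and 6175 FPKM, the widest relative spread among the 10 highest genes with 3 values. Casq1, which stores calcium in the reticulum, had 1886 ± 171 FPKM. Ckm, the muscle creatine kinase that regenerates ATP from creatine phosphate, had 10791, 10800.2 and 9982 FPKM. The glycolytic enzymes Aldoa, Gapdh and Eno3 had means of 9878 ± 260, 4712 ± 230.0 and 3546 ± 276 FPKM, and Pygm, which releases glucose units from glycogen, had 2832 ± 115 FPKM. Atp5b, the catalytic subunit of ATP synthase, differed little between pools, at 2132, 2127 and 2099.51 FPKM.

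**Figure D2:**
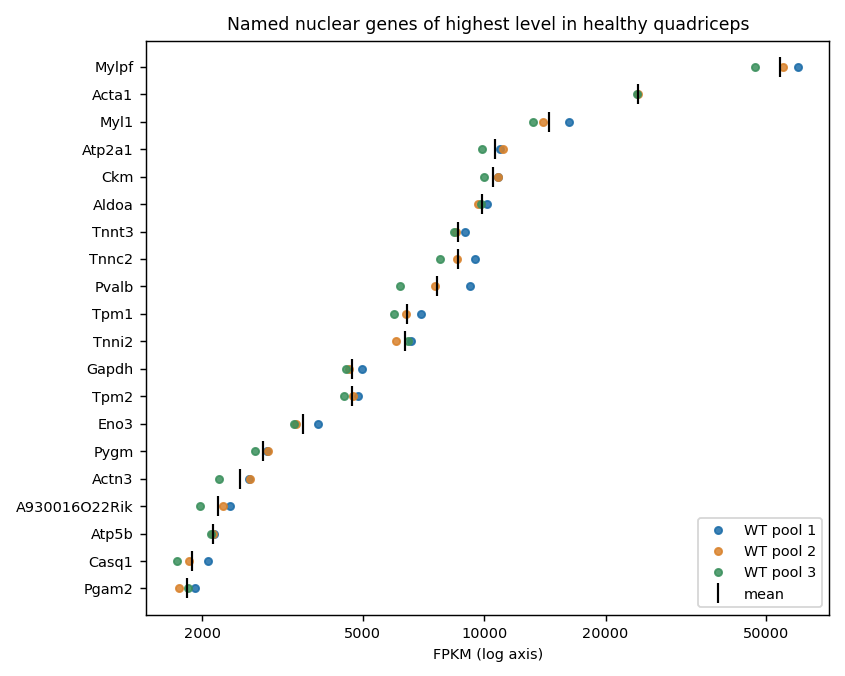
FPKM (log axis) of the 20 named nuclear genes of highest mean in healthy quadriceps, with 1 point per WT pool and a bar at the mean. Mylpf lies near 54078 FPKM and is apart from every other gene, and Acta1 has points for WT 2 and WT 3 alone.

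A pair of entries among the 20 highest need care. ENSMUSG00000089855, which has no name in the table, had 1145, 3279 and 2943 FPKM and was lowest in WT 1. A930016O22Rik on chromosome 7, typed as protein-coding in the deposited table and as antisense in GENCODE M21, had 2188 ± 189 FPKM and overlaps the 3′ end of Ckm, and the labels do not say whether counting used strand, so its reads and those of Ckm cannot be told apart. With A930016O22Rik counted, chromosome 7 carried 7 of the 20 highest and 18 of the 100 highest nuclear genes. It held 26.9% of the summed level with 7.75% of the detected protein-coding genes, and Mylpf, Atp2a1, Ckm, Aldoa, Tnnt3 and Tnni2 all lie on it.

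Within isoform families, 1 member usually held nearly all of the level. Over 37 families, the leading member held a median of 94.3% of its family's summed FPKM. The share was over 90% in 25 families, over 99% in 13 and under 60% in 3. The 37 include the myosin heavy chains, counted without Myh4, so the leading member of that family is uncertain. Of 66 pairs of neighbours in these orders with both genes detected, 6 overlapped between pools. These counts leave out 9 of 46 lists, chosen after their values were seen, which hold different subunits or proteins, such as the myosin light chains, laminins, sodium pump subunits and cytochrome c oxidase subunits. Over all 46 lists the share was under 60% in 9, its median was 91%, and 18 of 126 neighbours overlapped. Near-identical paralogs, such as the neighbouring myosin heavy chain genes, the actins and the haemoglobin genes, may exchange reads in the authors' counting, so the shares of their members are uncertain.

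The troponins were almost purely fast. Tnni2 held 99.97% of troponin I, Tnnt3 99.96% of troponin T and Tnnc2 99.97% of troponin C. The slow and cardiac member Tnnc1 had 1.74, 4.72 and 1.05 FPKM, highest in WT 2, and its mean of 2.50 became 1.39 without that pool. Tnnt1 and Tnni1, the slow isoforms, had 2.85 ± 0.926 and 1.49 ± 0.486 FPKM, and the cardiac Tnnt2 and Tnni3 were under the detection rule. Mylpf was 5591-fold above Myl2, its slow and cardiac counterpart. Myl3 and Myl2, the slow light chains, had 10.5 ± 2.96 and 9.67 ± 0.698 FPKM, and these neighbours overlapped.

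Myosin heavy chains could be ordered only without Myh4. Myh1, the IIX chain, had 626, 624 and 886 FPKM, highest in WT 3, and held 87.9% ± 1.55 (SD, n = 3) of the measured level. Myh2, the IIA chain, had 80.9, 87.0 and 94.9 FPKM. Myh14, a non-muscle chain that the share also counted, came next at 5.66 FPKM. Myh7, the slow chain, had 0.576, 1.06 and 0.197 FPKM and did not meet the detection rule, and the embryonic Myh3 stood at 0.284 FPKM. Myh8, the perinatal chain, was detected at 1.28 ± 0.169 FPKM. Myosin-binding proteins were more evenly divided, with the fast Mybpc2 at 69.4% and the slow Mybpc1 second at 419 ± 25.2 FPKM. Tropomyosins were also shared, with 57.6% for Tpm1 and the slow Tpm3 lowest at 14.7 ± 2.04 FPKM.

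Actn3 held 90.6% of the alpha-actinins, above Actn2 at 234 ± 38.3 FPKM. Among actins, Actc1, the cardiac isoform, had 1011, 793 and 608 FPKM, which placed it below Acta1 and above the cytoplasmic Actb at 179 ± 13.1 FPKM. Of 35 giant and Z-disc proteins, 34 were detected with a median of 201 FPKM, and Myom1 had no level. Tcap, which caps titin, was lowest in WT 1, at 1089 FPKM against 1538 and 1685 in the other pools.

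Calcium proteins showed the same concentration. Atp2a1 held 99.9% of the calcium pumps and was 918-fold above Atp2a2, the slow and cardiac pump, at 11.6 ± 1.04 FPKM. Casq1 exceeded Casq2, its slow and cardiac counterpart, 104-fold. Ryr1, the release channel of skeletal muscle, had 213, 282 and 241 FPKM, and Ryr2 and Ryr3 were under the detection rule. The peptide regulators of the pump were ordered with 2310015B20Rik, the gene of myoregulin, first at 73.2 ± 7.95 FPKM, while phospholamban (Pln) and sarcolipin (Sln) overlapped at 2.64 and 2.61 FPKM. All 25 genes of the excitation-contraction list were detected, with a median of 107 FPKM. Tmem38a, a cation channel of the reticulum, led with 590.2 ± 30.1 FPKM, and Cacna1s, the voltage sensor, had 211 ± 17.0 FPKM.

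**Figure D3:**
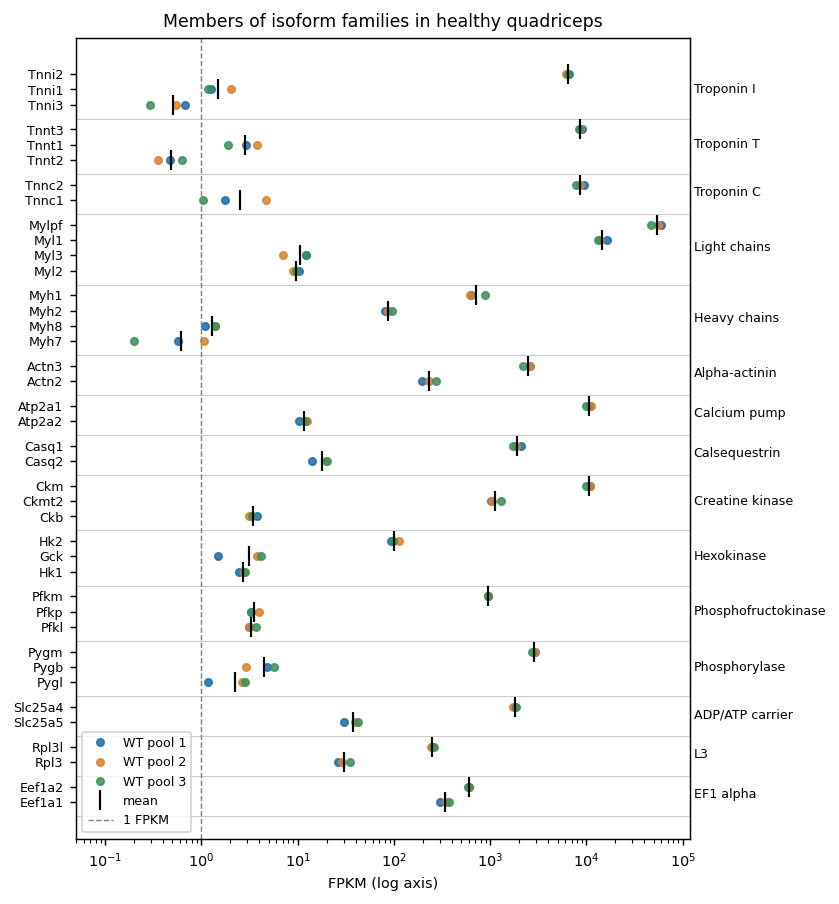
FPKM (log axis) of members of 15 isoform families in healthy quadriceps, with 1 point per WT pool, a bar at the mean and a dashed line at 1 FPKM. The fast troponins have means from 6379 to 8624 FPKM and their slow counterparts from 1.49 to 2.85 FPKM, while Eef1a2 and Eef1a1 lie close together.

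Metabolic isoforms were as selective. Ckm held 90.3% of the creatine kinases, Ckmt2, the sarcomeric mitochondrial enzyme, had 1118 ± 164 FPKM, and Ckb, the brain form, had 3.41 ± 0.343 FPKM. In glycolysis, Pfkm held 99.3% of the phosphofructokinases, Pgam2 99.6% of the phosphoglycerate mutases, Eno3 98.3% of the enolases and Hk2 94.3% of the hexokinases. Aldoc, the brain aldolase, was under the detection rule. Ldha, the lactate dehydrogenase subunit typical of fast muscle, was 16.7-fold above Ldhb, typical of heart. Pygm held 99.8% of the phosphorylases, and Gys1 exceeded the liver synthase Gys2 489.6-fold. Gys2 was under the detection rule at 0.306 FPKM, so the size of that fold is uncertain. Ampd1, which deaminates AMP during intense work, was highest in WT 1, at 883 FPKM against 786 and 679.

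Slc2a4, the insulin-sensitive glucose transporter GLUT4, had 211, 209 and 227 FPKM and was 77.3-fold above Slc2a1. Slc16a3, which exports lactate, was 13.1-fold above Slc16a1. All 24 genes of fatty acid uptake and oxidation were detected, with a median of 108 FPKM. Cpt1b, the muscle carnitine palmitoyltransferase, exceeded the liver form Cpt1a 41.9-fold. Pdk4, the kinase that shuts off pyruvate oxidation, had 373, 584 and 470.3 FPKM, highest in WT 2.

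Both lists of nuclear respiration genes had medians far above the 7.16 FPKM of all detected genes. All 36 nuclear genes of oxidative phosphorylation were detected, with a median of 467 FPKM, and all 17 of the citric acid cycle, with a median of 266 FPKM. Heart and muscle subunits of cytochrome c oxidase led over their ubiquitous partners, with Cox6a2 29.4-fold above Cox6a1, Cox8b 19.3-fold above Cox8a and Cox7a1 3.68-fold above Cox7a2. Slc25a4, the ADP/ATP carrier of muscle, was 48.2-fold above Slc25a5. Of 15 mitochondrially encoded genes, 9 had a level, with mt-Nd1 highest at 62024 ± 3811.8 FPKM, and 6 were at 0. The lowest of the 9 was mt-Co2 at 24.5 FPKM, and mt-Nd4 and mt-Nd4l lacked a value in WT 3. With so many failed values, the order of the mitochondrially encoded genes is uncertain. Mb, the oxygen store myoglobin, had 1242, 1080.42 and 1411 FPKM.

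Muscle versions of translation genes were found as well. Rpl3l, the muscle paralog of ribosomal protein L3, had 248, 241 and 260.4 FPKM and was 8.29-fold above Rpl3. Eef1a2, the muscle and neuron form of elongation factor 1 alpha, was 1.75-fold above Eef1a1. All 35 cytosolic ribosomal protein genes tested were detected, at a median of 163 FPKM.

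Myf6, the myogenic factor of mature fibres, had 48.2, 63.1 and 55.4 FPKM and held 83.0% of its family, above Myod1 at 8.04 ± 0.866 and Myog at 2.31 ± 0.355 FPKM. Myf5 was under the detection rule. Mef2c had 126, 111 and 107 FPKM and Mef2d 78.6, 86.2 and 91.1 FPKM, and these neighbours were apart. Of 18 limb position genes, which are Hox genes together with Pitx1, Tbx4 and Tbx5, 9 were detected, led by Hoxc10 at 35.0 ± 1.61 FPKM. Tbx4, the hindlimb T-box gene, had 1.15 ± 0.263 FPKM against 0.270 for the forelimb gene Tbx5.

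Genes of the membrane scaffold were moderate. Dmd, which encodes dystrophin, had 30.2, 31.6 and 27.7 FPKM and was 8.08-fold above its homolog Utrn. All 16 genes of the dystrophin-glycoprotein complex were detected, with a median of 30.3 FPKM and Sgca, alpha-sarcoglycan, highest at 181 ± 3.10 FPKM. Lama2, the laminin alpha-2 chain of the muscle basement membrane, had 9.42, 9.34 and 9.43 FPKM, an SD of 0.0505. The alpha chains Lama4 and Lama5 had means of 11.2 and 9.98 FPKM, and both overlapped Lama2. Lamc1 and Lamb2, the partner chains of Lama2, were higher, at means of 43.2 and 39.8 FPKM, and overlapped each other. At the neuromuscular junction, the adult acetylcholine receptor subunit Chrne had 7.78 ± 0.793 FPKM, while the fetal subunit Chrng had 0, 0.266 and 0.157 FPKM and was under the detection rule.

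Muscle upkeep and secreted factors were also measured. All 18 heat shock genes were detected, with a median of 83.7 FPKM, led by Hspb6 at 711 ± 67.4 and Cryab, the desmin chaperone alpha-B-crystallin, at 615 ± 59.8 FPKM. All 18 matched genes of the atrophy list were detected, with a median of 56.6 FPKM. That list holds ligases and autophagy genes together with Foxo factors, Klf15, Mstn, Mt1 and Mt2. Trim63, the ligase MuRF1, had 59.2, 116 and 75.5 FPKM, and Fbxo32, the ligase atrogin-1, had 30.9, 40.9 and 35.5 FPKM, and both were highest in WT 2. Mstn, the growth inhibitor myostatin, had 43.2, 39.1 and 43.4 FPKM. Dcn, the matrix proteoglycan decorin, led the secreted list at 423 ± 21.6 FPKM, while Fgf21 and Gdf15, hormones of metabolic stress, were under the detection rule.

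Fxyd1, which regulates the sodium pump, had 324, 312 and 334 FPKM. Car3, the muscle carbonic anhydrase, held 94.8% of its family at 898 ± 39.3 FPKM. Aqp1, the water channel of capillaries, had 111, 163 and 186 FPKM, lowest in WT 1, and Aqp4, the water channel of fast fibres, had 24.5, 13.7 and 20.3 FPKM, lowest in WT 2. Of 23 collagen chains, 20 were detected with a median of 9.72 FPKM, led by Col3a1 at 266 ± 26.2 FPKM. Of 19 circadian clock genes, 18 were detected, led by Tef at 131 ± 2.28 FPKM, and Per1, a core clock repressor, had 6.33, 26.1 and 21.6 FPKM, lowest in WT 1.

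Markers of fast fibres stood far above those of slow fibres, and markers of several other cell types were present. Of 13 type II fibre markers, 12 had a level with a median of 7013 FPKM, while 7 of 8 type I markers were detected with a median of 9.67 FPKM. In bulk tissue, fewer cells of a type and less RNA per cell cannot be told apart. All 10 endothelial, all 10 fibroblast and progenitor and all 10 macrophage markers were detected, at medians of 13.3, 42.9 and 8.42 FPKM. Of all protein-coding genes in the table, 49.4% were detected. Pecam1, an endothelial adhesion protein, had 31.4 ± 3.17 FPKM, Pdgfra, a receptor of fibro-adipogenic progenitors, 7.44 ± 0.577, and C1qa, a complement protein of macrophages, 22.7 ± 2.92. Of 10 satellite cell markers, 7 were detected with a median of 7.72 FPKM, and the defining factor Pax7 had 0.745, 0.573 and 0.597 FPKM, under the rule. None of the 6 T and NK cell or 4 B cell markers was detected, and the highest of these, Cd4, had 0.466 FPKM. Of the Schwann cell list, 4 of 10 were detected, while the neurofilament Nefl stood at 0.0102 FPKM. Des, listed for pericytes, is also a muscle fibre gene. The Y-linked Ddx3y had 24.8, 24.5 and 24.9 FPKM in these male mice.

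**Figure D4:**
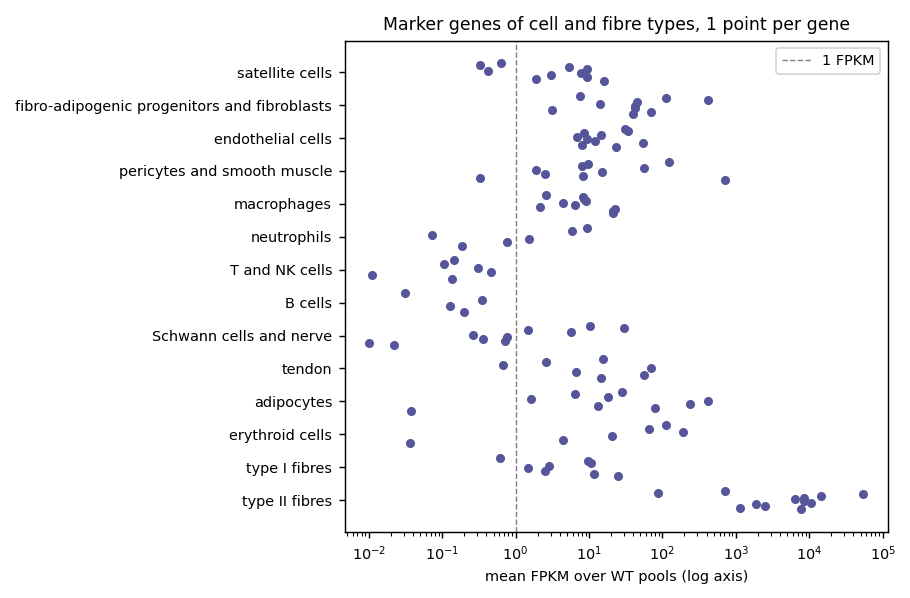
Mean FPKM over the WT pools (log axis) of marker genes, 1 point per gene in each list of cell or fibre types, with a dashed line at 1 FPKM and genes at 0 not drawn. Type II fibre markers lie highest with a median of 7013 FPKM, and all T and NK cell and B cell markers lie under 1 FPKM.

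The pools differed in small groups of genes. Of 6982 genes with a mean of at least 5 FPKM and no missing value, 13 had an SD over 1 on the log2 scale. S100a8, a calcium-binding protein of neutrophils, had 1.25, 24.6 and 2.76 FPKM, and S100a9, its partner, had 0.870, 14.7 and 2.12 FPKM. Both were highest in WT 2, and of the 6 neutrophil markers they were the 2 detected. Without that pool their means became 2.01 and 1.496 FPKM. The neutrophil receptor gene Csf3r was also highest there, at 0.202, 3.69 and 0.619 FPKM, though Ly6g was not, at 0.161, 0.0558 and 0 FPKM.

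Several stress-responsive genes were lowest in WT 1. Mt2, a metallothionein that binds zinc and copper, had 31.7, 263 and 109 FPKM, and its mean of 135 became 70.4 without WT 2. Ankrd1, a stretch-responsive titin-binding protein, had 5.85, 34.0 and 16.7 FPKM, and Rrad, a small GTPase, had 0.988, 17.3 and 5.70 FPKM. Slc25a25, a mitochondrial ATP-magnesium carrier, had 7.56, 41.2 and 17.1 FPKM. Of 15 detected immediate-early genes, 13 were highest in WT 2 and 14 lowest in WT 1, where 30.6% and 37.7% of all detected nuclear genes were so placed. Atf3, a stress-induced transcription factor, had 2.22, 10.8 and 5.40 FPKM. Of the other 4 of the 10 genes of largest SD, Gm20481, Arrdc2 and Lars2 were also lowest in WT 1. Gm17604 was lowest in WT 2. Gm20481 had 1.495, 17.6 and 9.21 FPKM, and Gm17604 had 45.1, 6.63 and 42.3 FPKM. Arrdc2, an arrestin-domain protein, had 8.65, 30.7 and 47.8 FPKM, and Lars2, the mitochondrial leucyl-tRNA synthetase, had 103, 300.017 and 457 FPKM.

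Adipocyte genes were highest in WT 3. All 8 detected adipocyte markers were highest in WT 3 and lowest in WT 1, where 32.1% of all detected nuclear genes were highest in WT 3. Adipoq, the hormone adiponectin, had 15.8, 22.5 and 45.4 FPKM, and Cfd, the adipocyte protease adipsin, had 128, 179 and 404 FPKM. The summed level of the list was 596, 706 and 1109.6 FPKM, and the brown fat gene Ucp1 stood at 0.0375 FPKM. All 5 detected erythroid genes and 18 of 24 fatty acid genes were also highest in WT 3. The excitation-contraction genes went the other way, with 16 of 25 highest in WT 1, against 37.3% of all detected nuclear genes. The part of adipocyte or blood RNA in the other differences between pools was not tested.

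**Figure D5:**
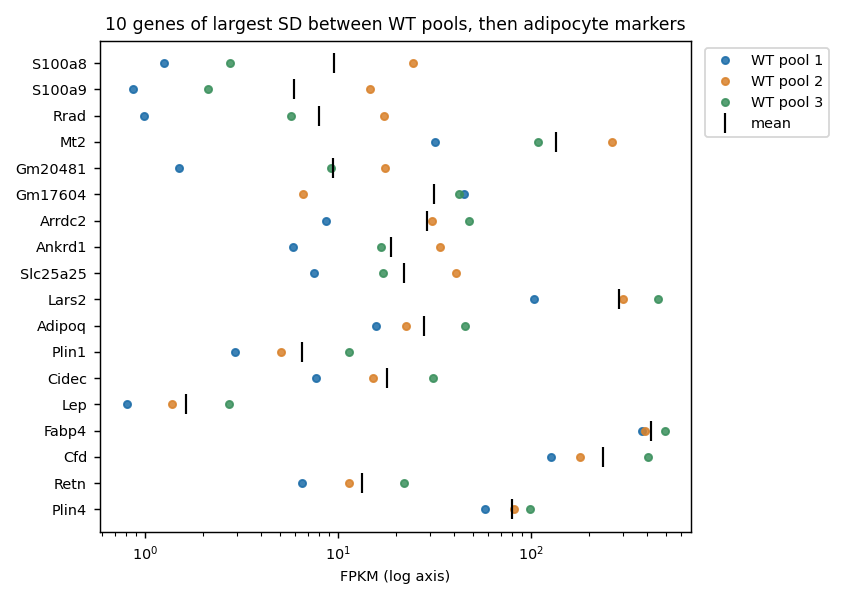
FPKM (log axis) by WT pool of the 10 genes of largest SD between pools, followed by the 8 detected adipocyte markers, with a bar at each mean. S100a8 lies at 24.6 FPKM in WT 2 against 1.25 and 2.76 in the other pools, and all adipocyte markers are highest in WT 3.

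Promoters of high and low isoforms were compared by their letters. The sequences below are RefSeq core promoters (build GRCm38.p6), from 45 bases before to 15 bases after the annotated start, and are shown because each pair holds a high and a low isoform of 1 family. Capitals mark TATAAA or TATATA on the gene's own strand. Ckm is at chr7:19411049-19411108 (+), Ckb at chr12:111672324-111672383 (-), Tnnc2 at chr2:164779720-164779779 (-) and Tnnc1 at chr14:31208267-31208326 (+).
Ckm: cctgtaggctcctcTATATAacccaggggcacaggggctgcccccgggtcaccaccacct
Ckb: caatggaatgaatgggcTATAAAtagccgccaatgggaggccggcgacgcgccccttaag
Tnnc2: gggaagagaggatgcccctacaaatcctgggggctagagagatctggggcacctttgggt
Tnnc1: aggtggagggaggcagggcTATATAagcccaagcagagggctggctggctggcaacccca
Both creatine kinase promoters held the motif, while of the troponin C pair it was the low gene Tnnc1 that held it. The start of Tnnc2 in RefSeq lies 233 bases from the gene's start in the deposited table.

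Over 8731 detected protein-coding genes with a RefSeq promoter, 2.13% held TATAAA or TATATA in that window. The share was 7 of the 100 highest of these genes, 6.22% of the 434 at 100 FPKM or more and 1.78% of the 5066 under 10 FPKM. In this paragraph the 100 highest are taken among the 8731, so they differ from the 100 highest nuclear genes given earlier. CAGCTG, the E-box core that reads the same on both strands, lay in the 300 bases around the start in 22 of the 100 highest genes and in 14.9% of all. Its share was 16.1% at 100 FPKM or more, 14.3% from 10 to 100 FPKM and 15.1% under 10 FPKM. The MEF2 consensus was found in 4 of the 100 highest and 1.81% of all, and the CArG box, the motif of serum response factor, in 4 and 1.29%. Median GC content was 58.7% in the 100 highest and 61.3% in all, and CpG dinucleotides numbered 15.5 and 21. The median transcript length was 1716 bases in the 100 highest and 3232 in all, and FPKM divides by length, so length and level are not independent measures. A match to letters is not a binding site, and these shares are descriptions without a test.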

How the data were processed

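Quadriceps RNA of wild-type, mdx and dy2J/dy2J mice was sequenced, and the 3 wild-type libraries of the deposited table were used. The authors deposited FPKM values per gene. Per the submitters' processing notes, the tools were Cufflinks 2.2.1 (with Cuffnorm and Cuffdiff), TopHat2 2.0.13, Trim Galore 0.3.7 and bcl2fastq 2.15.0.4, and the build was GRCm38. The deposited FPKM values carry no counts or depth, so no interval from counting was given. Strand use and the handling of short transcripts are not given in the sources used here.

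Means and SDs over pools, ranks over detected nuclear genes, and log2(FPKM + 1) values were computed with pandas 2.3.3 and numpy 2.4.6 under Python 3.11.15, figures were drawn with matplotlib 3.10.9, and the steps were checked on simulated data. Detection required 1 FPKM in 2 pools. A 0 was treated as missing where the gene's highest wild-type value was at least 5 FPKM. A family share is a member's FPKM over the sum of the family's measured members in the same pool. Unnamed entries took names from GENCODE M21 (8673 of 8987). RefSeq promoters matched 81.8% of the 10669 detected protein-coding genes on the autosomes other than chromosome 18 and on X. Named genes were the 20 highest, the members of small families, the 3 highest of other lists, the 10 of largest SD, the genes nearest the threshold, Dmd and Lama2; others in the text were chosen after their values were seen. The members and lists were chosen with earlier results of these data known. Replicates were pools, and no batch is given in the labels. Alternatives covered the threshold, rescaling, the treatment of zeros, the pseudocount and leaving out each pool. A few genes of the lists are not reported here.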

Additional observations from a re-analysis of the deposited data

How the results depend on the processing

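The number of detected genes was 7010 with a threshold of 5 FPKM and 19708 when any value above 0 in 2 pools counted, against 11641. It ranged from 11218 to 11405 when a pool was left out and both others had to reach 1 FPKM. The share of the 20 highest genes was 57.1% with mitochondrially encoded genes kept, against 38.6%, and ranged from 35.7% to 37.9% without a pool; without WT 2 or WT 3, Acta1 kept a single value and was not counted as detected. The median log2 SD was 0.127 with a pseudocount of 0.1 and 0.0848 without a filter, against 0.109, and ranged from 0.0729 to 0.0994 from the 2 pools left. The median log2 level of detected genes ranged from 3.06 to 3.08 over fewer detected genes, against 3.02. The median leading share ranged from 93.5% to 94.9% without a pool and was 93.2% with zeros kept, and between 19 and 20 of the 20 highest genes were shared with the full set. No leading member of the 37 families changed under rescaling, kept zeros or the loss of a pool. Myh4 was left out of its family in each of these settings. No paired analysis was possible because only 1 group was used. With 3 pools and no counts, differences between pools near the detection threshold cannot be resolved.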
